A study of Mus musculus with 21 samples.

Results

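PreMegE and PreGM are early progenitor fractions of the mouse bone marrow, the first named for megakaryocytes and erythroid cells and the second for granulocytes and macrophages. They were chosen by the titles of the arrays, 3 titled PreMegE and 3 titled PreGM, which are 6 of the 21 arrays of the series. The marrow donors were C57BL/6 mice, and no treatment other than sorting is named. PreMegE cells were gated as lin-, ckit+, sca1+, CD150+, CD105- and FGCrI/II-, and PreGM cells by the same markers except that they were CD150-. KLS, used here as the reference for direction, was gated as lin-, ckit+ and sca1+ and comprises more immature progenitors. CFUe and GMP, used for a later comparison, are the following stage on the erythroid and the myeloid side. The labels give CFUe the same marker combination as PreGM, so CFUe is named here by its title. GMP was gated as lin-, ckit+, sca1+, CD150- and FCGrI/II+. Each of these fractions had 3 arrays. The labels do not say whether the replicates were separate animals. The p-values rest on the spread between arrays within a fraction, shared over all 21 arrays of the series and not only these 6. That spread may be technical.

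The comparison asked which regulators and gene families already differed where these branches part. In this system the erythroid and megakaryocyte side is known for GATA1 with its cofactors FOG1 and SCL, and for KLF1 on erythroid genes. The granulocyte and macrophage side is known for PU.1, C/EBP factors and IRF8, and for the receptors of the colony-stimulating factors. Levels are log2 intensities set against the 75th percentile of their array, so that 0 equals that percentile and a difference of 1 equals 2-fold. Differences are PreMegE minus PreGM, given with the standard error of the fit, and a call needed at least a 2-fold change as well as an adjusted p below 0.05. Levels of different genes come from different probes and were not compared with each other. The gene lists were chosen with earlier results of these data known. Their counts and medians therefore describe the listed genes and are no test of a gene class. In sorted populations measured in bulk, fewer cells of a type and less RNA per cell cannot be told apart.

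The fractions separated widely. Of 29532 probes tested, 1716 (5.81%) were called higher in PreMegE and 1840 (6.23%) lower, and the median difference over all of them was 0.03. With 1 probe for each of 14315 genes, 743 genes (5.19%) were called higher and 1019 (7.12%) lower. These shares, 12.3% together, are the reference for each count of listed genes below. The ranges of the fractions did not overlap for 12607 probes (42.7%) and, by gene, for 6373 genes (44.5%), so groups that lie apart are common here. Correlations between arrays, which are across probes and not over independent replicates, were 0.980 to 0.986 within PreMegE, 0.981 to 0.993 within PreGM and 0.940 to 0.953 between them. Scaling to the spike-in RNAs moved the median of all probes to 0.19 and the share of calls that were higher in PreMegE from 48.3% to 59.5%.

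Some features of the arrays touch the results below. Xist, the transcript of the inactive X chromosome, stood at 5.53 and 5.61 on PreGM replicates 1 and 2 and at -6.71 on replicate 3. Ddx3y, a gene of the Y chromosome, stood at 1.41 on PreGM replicate 3, between 1.59 and 1.90 on the PreMegE arrays, and at -6.17 and -7.22 on PreGM replicates 1 and 2. Against PreGM replicate 3 alone, which carries the same pattern as PreMegE, 1311 probes were called higher and 1450 lower, and 2336 of the 3556 main calls were kept. That comparison assumes that the lone array varies like the other groups. PreGM replicate 3 also stood apart from the other PreGM arrays in secondary granule transcripts, as given below with them. Without it 1913 probes were called higher and 1995 lower. Finally, both fractions lay on 2 of the slides, and 3527 of the 3556 probes called had the same direction within each of those slides. The arrays on those slides also made the calls, so this agreement was largely fixed in advance and is no independent check of the slides.

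The sorting antigens were checked against their transcripts. Slamf1, which encodes CD150 and was used for the gate, stood at 0.21, 0.41 and 0.36 on the PreMegE arrays and -5.44, -4.92 and -5.32 on the PreGM arrays. The gate fixed that direction. Ly6a, a gene for Sca1, stood at 2.64, 2.38 and 2.70 on the KLS arrays, at -2.91, -3.17 and -3.35 on the PreMegE arrays and -0.42, -0.23 and -0.28 on the PreGM arrays. The PreMegE arrays were thus far below KLS although the labels give both as sca1+. Eng, which encodes CD105, was well above background on every array, at 2.13, 2.25 and 2.06 on the PreMegE arrays and 1.64, 1.71 and 1.68 on the PreGM arrays.

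The factors of the GATA side were higher in PreMegE in many cases. Among 16 genes for GATA factors, SCL partners and related regulators, 8 of 15 genes tested were called higher and 0 lower, with a median of 1.34. Gata1, the central erythroid and megakaryocyte factor, stood at 2.46, 2.47 and 2.51 on the PreMegE arrays and -0.92, -0.92 and -0.42 on the PreGM arrays. The groups did not overlap, as for 44.5% of all genes, and the difference was 3.23 ± 0.24 (adjusted p = 2.92e-08). Klf1, the activator of erythroid genes, stood at 2.07, 2.32 and 2.23 on the PreMegE arrays and -2.17, -2.07 and -1.41 on the PreGM arrays, a difference of 4.09 ± 0.41 (adjusted p = 1.00e-06). Zfpm1 encodes FOG1, the cofactor of GATA1, and stood at 6.37, 6.53 and 6.18 on the PreMegE arrays and 3.71, 3.68 and 3.81 on the PreGM arrays. The groups lay well apart, and the fitted difference was 2.63 ± 0.20 (adjusted p = 3.70e-08). Gfi1b, a repressor needed for erythroid and megakaryocyte cells, differed by 2.47 ± 0.17 (adjusted p = 1.19e-08). Gata2, which acts in progenitors and in mast cells, stood at 5.23, 5.41 and 4.96 on the PreMegE arrays and 2.68, 2.61 and 3.09 on the PreGM arrays and differed by 2.41 ± 0.21 (adjusted p = 1.47e-07). Cbfa2t3, a corepressor found in SCL complexes, differed by 1.76 ± 0.14 (adjusted p = 4.21e-08), and Ldb1, the adaptor of those complexes, by 1.34 ± 0.16 (adjusted p = 8.27e-06). Nfia, a factor that favours the erythroid over the granulocyte fate, differed by 2.46 ± 0.13 (adjusted p = 4.79e-10) and was called on all 3 of its probes.

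Several partners of these factors were not called. Fli1, an ETS factor of megakaryocytes, differed by 0.29 ± 0.31 (adjusted p = 0.555) and Lmo2, the bridging subunit of SCL complexes, by 0.33 ± 0.17 (adjusted p = 0.177). Nfe2, needed for platelet release, differed by 0.62 ± 0.22 (adjusted p = 0.042), below the 2-fold minimum. Lyl1, a close relative of SCL, differed by -0.78 ± 0.19 (adjusted p = 0.00453) with the levels lower in PreMegE, also short of 2-fold. Tal1 was not analysed here. Against PreGM replicate 3 alone, the counts were 8 higher and 1 lower.

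Myeloid factors had the opposite pattern. Of the 18 genes on that list, 2 of 17 genes tested were called higher and 11 lower, with a median of -1.96. Irf8, which directs monocyte and dendritic cell fates, stood at -0.61, -0.62 and -0.90 on the PreMegE arrays and 5.53, 5.51 and 5.51 on the PreGM arrays. The PreGM arrays were almost equal, and the difference was -6.22 ± 0.60 (adjusted p = 5.26e-07). Cebpa, the factor required for the granulocyte and macrophage branch, stood at -0.96, -0.89 and -0.93 on the PreMegE arrays and 2.06, 1.96 and 2.59 on the PreGM arrays, a difference of -3.13 ± 0.31 (adjusted p = 7.55e-07). Spi1, which encodes PU.1, stood at -2.37, -2.09 and -2.11 on the PreMegE arrays and 0.85, 0.78 and -0.18 on the PreGM arrays. Its level on PreGM replicate 3 was the lowest of the PreGM arrays but still above every PreMegE array, and the difference was -2.67 ± 0.36 (adjusted p = 2.44e-05). Gfi1, a transcriptional repressor that acts in the neutrophil lineage, stood at -2.55, -2.44 and -2.68 on the PreMegE arrays. On the PreGM arrays it stood at 0.64, 0.75 and 2.32, with replicate 3 the highest. Cebpd differed by -3.42 ± 0.16 (adjusted p = 1.42e-10), Id2, an inhibitor of E proteins, by -3.28 ± 0.41 (adjusted p = 1.03e-05) and Irf5 by -2.69 ± 0.24 (adjusted p = 2.68e-07).

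Not every myeloid regulator was lower. Klf4, a factor of monocytes, differed by 2.10 ± 0.22 (adjusted p = 1.57e-06) and Jun by 2.17 ± 0.18 (adjusted p = 7.79e-08), both higher in PreMegE. Runx1, which acts across haematopoiesis, differed by -0.29 ± 0.13 (adjusted p = 0.119) and was not called. Nab2 was called at -1.68 ± 0.49 (adjusted p = 0.0167), although its groups overlapped, and against PreGM replicate 3 alone the difference was -0.70 (adjusted p = 0.559). For Vdr the corresponding values were -1.43 ± 0.38 (adjusted p = 0.00864) and -1.41 (adjusted p = 0.129). Over the list, that comparison gave 2 higher and 9 lower. Cebpe was not analysed here.

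**Figure D1:**
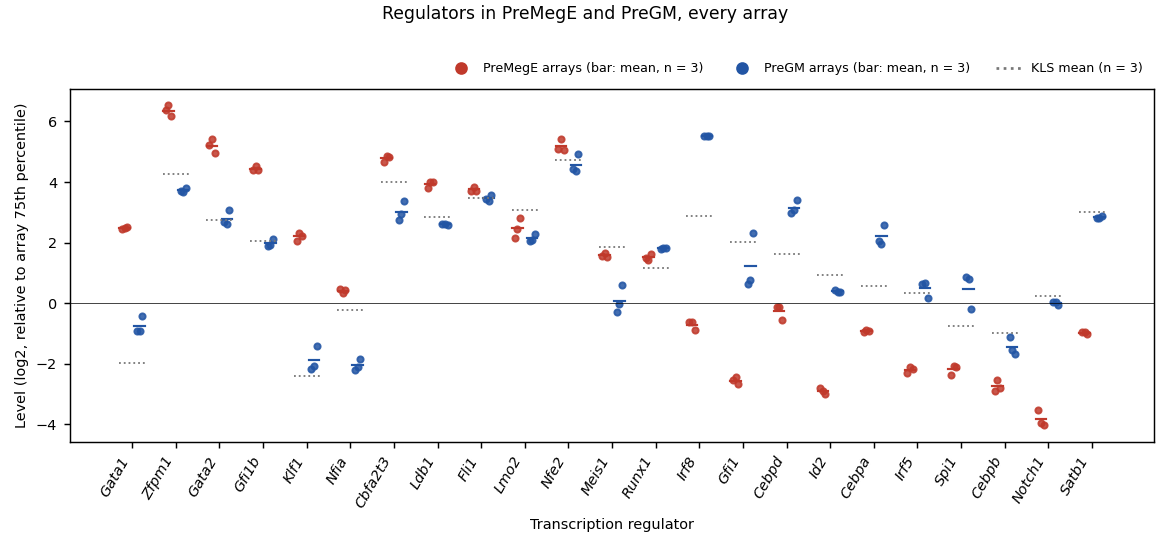
Level of 23 regulators on every PreMegE and PreGM array (log2, relative to the 75th percentile of the array), with bars at the group means and dotted lines at the KLS mean. The PreMegE arrays lie above all PreGM arrays for Gata1 to Ldb1 and below them for Irf8 to Satb1, whereas Fli1 differed by 0.29. Over all genes tested, the fractions did not overlap for 44.5%.

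Factors of multipotent and lymphoid progenitors split in both directions. 4 of 22 genes tested were called higher and 3 lower, beside 5.19% and 7.12% of all genes, with a median of -0.08. Notch1, a receptor that acts as a transcriptional regulator in T cell development, stood at -3.52, -3.96 and -4.04 on the PreMegE arrays and 0.05, 0.03 and -0.05 on the PreGM arrays. Satb1, a chromatin organiser of lymphoid cells, stood at -0.95, -0.95 and -1.01 on the PreMegE arrays and 2.82, 2.83 and 2.87 on the PreGM arrays. Both were lower on every PreMegE array, with differences of -3.85 ± 0.31 and -3.81 ± 0.20 (adjusted p = 6.17e-08 and 5.82e-10). Hlf, a factor of stem cells, differed by -1.71 ± 0.27 (adjusted p = 1.11e-04). Mycn differed by 2.92 ± 0.42 (adjusted p = 5.15e-05) and Bcl11a, a repressor of fetal globin genes, by 1.51 ± 0.15 (adjusted p = 7.74e-07). Meis1 stood at 1.56, 1.65 and 1.52 on the PreMegE arrays and -0.30, -0.04 and 0.59 on the PreGM arrays and was called at 1.49 ± 0.47 (adjusted p = 0.0249), but only 1 of its 2 probes was called. Its difference was 0.98 (adjusted p = 0.418) against PreGM replicate 3 alone. Myb, Runx3, Etv6, Erg, Mecom, Gata3 and Sox4 were among the 15 that were not called.

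By whole gene family, the same regulators were seen beside their relatives. Over all genes, 5.19% were called higher and 7.12% lower. Of 16 KLF genes tested, 3 were called higher and none lower, namely Klf1, Klf6 and Klf4. Klf6 differed by 2.25 ± 0.18 (adjusted p = 5.40e-08). Of 5 C/EBP genes, 3 were lower, Cebpa, Cebpd and Cebpb, the last by -1.30 ± 0.17 (adjusted p = 1.83e-05). Irf8 and Irf5 were the 2 of 9 IRF genes called, both lower. Of 21 ETS genes, 2 were called lower, near the share of all genes. Among 6 MEIS and PBX genes, 3 were called higher, Meis1 and Pbx4 among them. None of 19 HOX genes and none of 5 Ikaros genes was called by limma, although 3 and 1 had an unadjusted p under 0.05, respectively, and Ikzf1 was at 0.99 ± 0.17 (adjusted p = 2.46e-04), just under 2-fold. In other fits some were called, namely 1 HOX gene higher and 1 lower with the block for sex-chromosome transcripts and 1 higher against PreGM replicate 3 alone. Of the Ikaros genes, 1 was called lower with that block, and 1 higher with the slide as a block and with spike-in scaling.

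Receptors for cytokines fell mostly on the PreGM side. Of 31 genes listed, 4 of 29 genes tested were called higher and 16 lower, with a median of -1.55. Csf1r, the receptor of macrophage colony-stimulating factor, stood at -3.07, -3.22 and -3.93 on the PreMegE arrays and 2.67, 2.45 and 2.42 on the PreGM arrays, a difference of -5.92 ± 0.28 (adjusted p = 1.95e-10) on the probe reported and called on all 3 of its probes. Csf3r, the receptor of granulocyte colony-stimulating factor, stood at -3.49, -3.48 and -4.04 on the PreMegE arrays and 0.70, 0.63 and 0.98 on the PreGM arrays. Its difference was -4.44 ± 0.31 (adjusted p = 1.18e-08). Flt3, the receptor of FLT3 ligand on lymphoid and myeloid progenitors, stood at -2.45, -2.67 and -3.22 on the PreMegE arrays and 0.77, 0.89 and 0.65 on the PreGM arrays and differed by -3.55 ± 0.26 (adjusted p = 2.52e-08). The receptor subunits Csf2rb (-3.57 ± 0.27) and Csf2rb2 (-2.84 ± 0.42), shared by IL-3, IL-5 and GM-CSF signalling in part, were lower, whereas the GM-CSF specific subunit Csf2ra differed by -0.02 ± 0.13 (adjusted p = 0.943). Il7r, the receptor of the lymphoid cytokine IL-7, had no PreMegE array well above background and was at least 4.94-fold lower.

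In the other direction, Epor, the erythropoietin receptor, stood at 3.52, 3.79 and 3.55 on the PreMegE arrays and -0.56, -0.74 and -0.14 on the PreGM arrays, a difference of 4.11 ± 0.25 (adjusted p = 2.42e-09). Il1rl1, the IL-33 receptor, stood at 1.39, 1.72 and 1.83 on the PreMegE arrays and -1.54, -1.64 and -0.22 on the PreGM arrays, where replicate 3 was the highest PreGM array. It differed by 2.78 ± 0.35 (adjusted p = 1.39e-05). Ifngr1, a subunit of the interferon gamma receptor, was also called higher, at 1.05 ± 0.15, while its partner Ifngr2 was called lower, at -1.82 ± 0.21. Kit was not analysed here. Against PreGM replicate 3 alone, the counts for the receptors were 3 higher and 16 lower.

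Promoter windows were searched for short motifs of the factors that differed. The windows are from RefSeq (build GRCm38.p6, the first window listed for a gene), from 250 bases before to 50 bases after the start, and were found for 11445 of the 14315 genes. The GATA motif AGATAAG, on either strand, was in 19 of 581 windows (3.27%, 95% Wilson interval 2.10% to 5.05%) of genes called higher, in 14 of 783 (1.79%) of genes called lower and in 238 (2.08%) of all. The ETS motif GGAAGTG was in 58 (9.98%) of those called higher, 101 (12.9%) of those called lower and 1602 (14.0%) of all. Without a minimum fold the share of AGATAAG in genes called higher was 1.87%, below that of all windows rather than above it. These shares are descriptions without a test. Some windows are shown because their genes are among the clearest differences on either side and hold a motif, in capitals.
Epor, chr9:21963527-21963826, minus strand: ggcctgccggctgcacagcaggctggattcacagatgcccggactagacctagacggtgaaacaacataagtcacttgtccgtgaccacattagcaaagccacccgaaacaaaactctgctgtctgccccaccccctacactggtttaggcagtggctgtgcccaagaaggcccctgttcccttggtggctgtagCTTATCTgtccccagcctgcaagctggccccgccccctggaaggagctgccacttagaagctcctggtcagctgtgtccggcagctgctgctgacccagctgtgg
Rhd, chr4:134864286-134864585, plus strand: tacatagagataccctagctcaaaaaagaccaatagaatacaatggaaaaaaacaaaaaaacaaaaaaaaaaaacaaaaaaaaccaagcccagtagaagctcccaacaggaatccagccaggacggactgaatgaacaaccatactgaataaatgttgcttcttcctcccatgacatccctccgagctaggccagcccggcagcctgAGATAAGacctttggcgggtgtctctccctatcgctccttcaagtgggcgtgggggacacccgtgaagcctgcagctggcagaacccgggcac
Prtn3, chr10:79879417-79879716, plus strand: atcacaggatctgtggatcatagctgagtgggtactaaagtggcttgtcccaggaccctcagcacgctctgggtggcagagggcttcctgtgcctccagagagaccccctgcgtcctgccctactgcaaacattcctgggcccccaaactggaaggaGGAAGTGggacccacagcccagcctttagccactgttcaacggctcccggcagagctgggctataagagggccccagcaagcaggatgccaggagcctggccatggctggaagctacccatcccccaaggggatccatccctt
Pf4, chr5:90772185-90772484, plus strand: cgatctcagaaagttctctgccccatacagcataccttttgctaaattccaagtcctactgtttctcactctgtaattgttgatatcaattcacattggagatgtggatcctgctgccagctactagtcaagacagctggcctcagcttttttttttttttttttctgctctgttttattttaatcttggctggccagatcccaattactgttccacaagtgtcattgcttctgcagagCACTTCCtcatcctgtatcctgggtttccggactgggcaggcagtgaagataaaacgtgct
The first pair, the erythropoietin receptor and the Rh blood group antigen, carry AGATAAG or its reverse complement. Prtn3, a granule protease lower in PreMegE, and Pf4, a platelet chemokine higher in PreMegE, both carry GGAAGTG or its reverse complement. The windows of Gata1, Klf1, Irf8 and Cebpa held neither string of letters.

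Platelet and megakaryocyte genes were among the largest differences toward PreMegE. Of 28 genes listed, 16 of 26 genes tested were called higher and 3 lower, with a median of 1.56. Cavin2, a caveolar protein abundant in platelets, stood at 2.99, 3.40 and 3.14 on the PreMegE arrays and -3.45, -3.60 and -3.16 on the PreGM arrays. Its difference, 6.58 ± 0.42 (adjusted p = 5.19e-09), was the largest toward PreMegE among genes well above background on all 6 arrays. Pf4 stood at 4.36, 4.79 and 4.43 on the PreMegE arrays and -0.28, -0.27 and 0.09 on the PreGM arrays and differed by 4.68 ± 0.31 (adjusted p = 8.21e-09). The subunits of the platelet von Willebrand factor receptor rose together, with Gp5 differing by 4.49 ± 0.53, Gp1ba by 3.13 ± 0.27, Gp9 by 2.76 ± 0.21 and Gp1bb by 2.84 ± 0.20. Their ligand Vwf differed by 3.42 ± 0.21 (adjusted p = 2.58e-09), and Itga2b, the platelet integrin CD41, by 2.33 ± 0.26 (adjusted p = 2.94e-06). CD41 is among the lineage antigens given in the labels, and Itga2b was well above background on all 6 arrays. Ppbp, another platelet chemokine, was at least 3.92-fold higher in PreMegE, with no PreGM array well above background.

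Members of the platelet list also moved the other way. Selp, the adhesion receptor P-selectin, stood at -2.27, -2.68 and -3.02 on the PreMegE arrays and -0.52, -0.46 and -0.97 on the PreGM arrays and was called lower (adjusted p = 1.13e-06). Mmrn1, a multimeric platelet protein, was at least 2.9-fold lower, with no PreMegE array well above background. Thbs1 was called at -1.62 ± 0.50 (adjusted p = 0.0224) with groups that overlapped, and with a difference of -0.37 (adjusted p = 0.764) against PreGM replicate 3 alone. Itgb3, the partner of CD41, differed by -0.22 ± 0.29 (adjusted p = 0.67) and was not called. For this list the counts against that array were 14 higher and 2 lower.

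Red cell genes were already high in PreMegE. Of 32 genes for the red cell membrane, globins and related proteins, 18 of 27 genes tested were called higher and 0 lower, with a median of 3.01. With genes below background set to their bound, the median was 2.54, and with a normexp background it was 1.77. Car1, the erythroid carbonic anhydrase, stood at 5.21, 5.48 and 5.67 on the PreMegE arrays and 0.66, 0.58 and 1.16 on the PreGM arrays, a difference of 4.65 ± 0.33 (adjusted p = 1.48e-08). Aqp1, the red cell water channel, stood at 6.56, 6.45 and 6.41 on the PreMegE arrays and 1.97, 2.03 and 2.49 on the PreGM arrays and differed by 4.31 ± 0.30 (adjusted p = 1.13e-08). Ermap, an erythroid membrane protein, differed by 4.70 ± 0.64 (adjusted p = 2.80e-05) and Rhd by 3.81 ± 0.30 (adjusted p = 4.89e-08). Ank1, the ankyrin of the membrane skeleton, differed by 3.99 ± 0.30 (adjusted p = 2.91e-08), and Kel, a blood group protease, by 3.86 ± 0.41 (adjusted p = 1.65e-06). Add2, of the same skeleton, was higher in PreMegE by at least 12.6-fold, with no PreGM array well above background.

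Globin transcripts were higher in PreMegE than in PreGM. Hba-a1 stood at 2.65, 2.90 and 2.10 on the PreMegE arrays and -1.004, -1.02 and 0.00 on the PreGM arrays and differed by 3.22 ± 0.26 (adjusted p = 7.32e-08), and PreMegE minus KLS was 0.34 (adjusted p = 0.377). Hbb-bt stood at 3.81, 3.89 and 3.16 on the PreMegE arrays and 1.65, 1.88 and 1.95 on the PreGM arrays, and differed by 1.79 ± 0.23 (adjusted p = 1.51e-05), and PreMegE minus KLS was -0.66 (adjusted p = 0.0444). These globins have near-identical copies and their signal is uncertain for that reason. Slc4a1, the band 3 anion exchanger of mature red cells, differed by 0.79 ± 0.22 (adjusted p = 0.0117), short of 2-fold. The summed linear level of 6 mature red cell markers ranged from 0.830 to 0.967 in PreMegE and from 0.151 to 0.198 in PreGM, and its part in these differences was not tested. Red cell counts against PreGM replicate 3 alone were 18 higher and 0 lower.

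The haem and iron list changed less. 5 of 20 genes tested were called higher and 1 lower, beside 5.19% and 7.12% of all genes, with a median of 0.61. Alas2, the erythroid form of the first enzyme of haem synthesis, differed by 3.002 ± 0.29 (adjusted p = 6.42e-07), and Alas1, the form of other tissues, by -1.77 ± 0.21 (adjusted p = 6.44e-06). The forms thus differed between the fractions in opposite directions. Alas2 stood at -2.11, -1.88 and -2.50 on the PreMegE arrays, near the KLS arrays at -2.33, -2.59 and -2.54. On the PreGM arrays it stood at -5.45, -5.495 and -4.55, and only 2 of these were well above background. The importer Tfr2 differed by 1.90 ± 0.17 (adjusted p = 2.87e-07) and the exporter Slc40a1 by 3.05 ± 0.35 (adjusted p = 3.91e-06). The later enzymes Alad, Urod, Ppox and Fech had differences from 0.58 to 0.88, and none reached 2-fold. Tfrc, the transferrin receptor, differed by 0.07 ± 0.18 (adjusted p = 0.837).

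**Figure D2:**
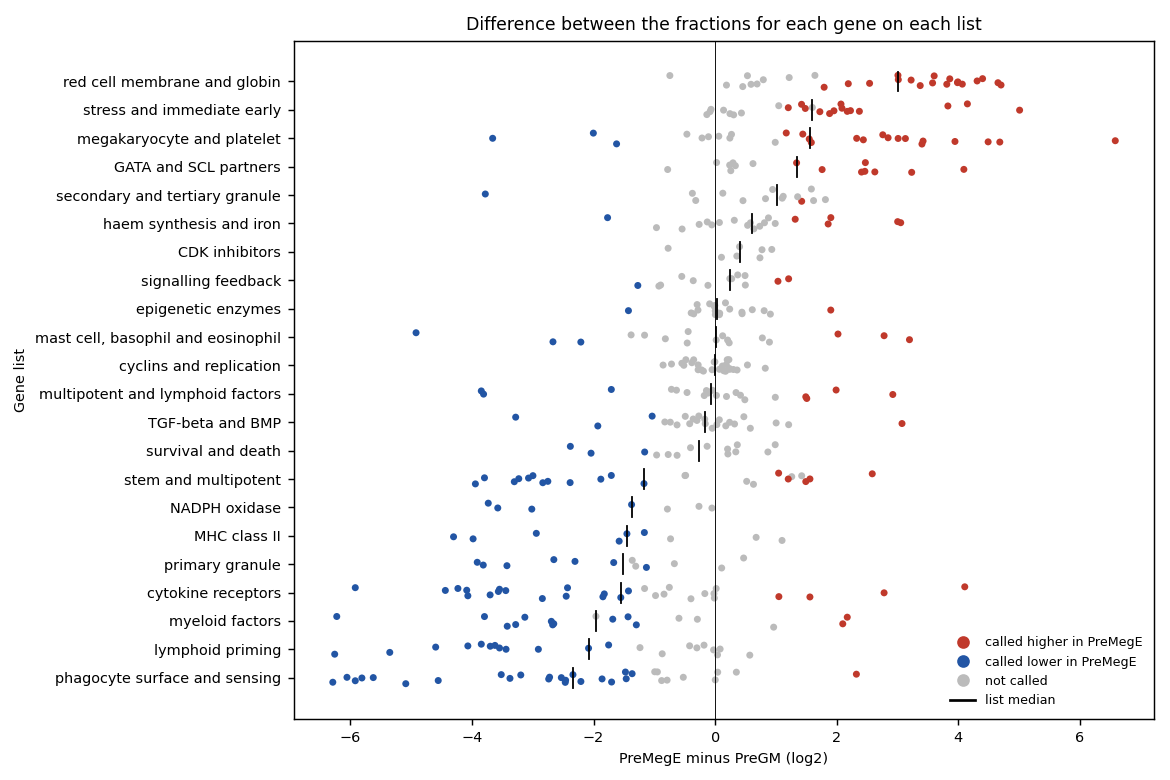
Difference between PreMegE and PreGM (log2) for each gene tested on each of 22 lists, ordered by the list median, which a black line marks. Red cell genes had the highest median (3.01) and phagocyte genes the lowest (-2.34), while the cyclin and replication genes lay around 0 with none called. The lists were chosen with earlier results of these data known, so their order is a description.

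Phagocyte genes were the list with the lowest median. Of 33 genes for surface and sensing proteins of phagocytes, 1 of 31 genes tested were called higher and 22 lower, with a median of -2.34. With genes below background at their bound the median was -2.21, and with a normexp background it was -1.51. Ly86, which encodes the MD-1 partner of the sensor RP105, stood at -2.16, -2.09 and -2.69 on the PreMegE arrays and 4.02, 3.95 and 3.97 on the PreGM arrays, a difference of -6.29 ± 0.49 (adjusted p = 4.77e-08). Itgax, the integrin CD11c, was at least 30.8-fold lower, with no PreMegE array well above background. F13a1, a coagulation subunit made by monocytes, stood at -1.05, -1.19 and -1.42 on the PreMegE arrays and 4.69, 4.50 and 4.58 on the PreGM arrays and differed by -5.81 ± 0.71 (adjusted p = 9.37e-06). Tyrobp, an adaptor of activating receptors, stood at 0.23, 0.05 and -0.44 on the PreMegE arrays and 4.88, 4.96 and 5.27 on the PreGM arrays, a difference of -5.09 ± 0.64 (adjusted p = 1.18e-05). Clec4d, a lectin receptor, was the exception and was called higher, at 2.32 ± 0.39 (adjusted p = 2.16e-04). The Fc receptors Fcgr3 and Fcgr2b, which belong to the gate, were lower in PreMegE, with differences of -1.86 ± 0.39 and -1.37 ± 0.45, the latter -1.51 (adjusted p = 0.174) against PreGM replicate 3 alone. In that comparison the list had 1 higher and 19 lower.

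Genes of the phagocyte oxidase moved with them. Among 7 genes, 4 were called lower and none higher. Ncf1 stood at -2.86, -2.93 and -2.89 on the PreMegE arrays and 0.84, 0.76 and 0.92 on the PreGM arrays and differed by -3.73 ± 0.24 (adjusted p = 5.55e-09), and Ncf4 by -3.02 ± 0.42 (adjusted p = 3.62e-05). Cybb, the catalytic membrane subunit, was at least 6.21-fold lower, with no PreMegE array well above background. Its membrane partner Cyba differed by -0.27 ± 0.23 (adjusted p = 0.463).

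Chemokines and their receptors also differed between the fractions. Of 22 CC and CXC chemokines tested, 8 were called lower and 3 higher. Ccl3, an inflammatory chemokine, stood at -2.14, -2.30 and -3.32 on the PreMegE arrays and 4.96, 5.13 and 3.96 on the PreGM arrays. Its difference, -7.27 ± 0.68 (adjusted p = 4.13e-07), was the largest toward PreGM among genes well above background on all 6 arrays. Ccl9 stood at -0.66, -0.64 and -0.99 on the PreMegE arrays and 5.18, 5.09 and 5.36 on the PreGM arrays and differed by -5.97 ± 0.52 (adjusted p = 1.67e-07), and Ccl4 and Ccl5 by -3.75 ± 0.41 and -3.61 ± 0.28. Ccl17 went the other way, with levels of 1.18, 1.28 and 0.87 on the PreMegE arrays and -2.80, -2.80 and -2.60 on the PreGM arrays and a difference of 3.84 ± 0.34 (adjusted p = 1.79e-07). Of 15 chemokine receptors, 6 were lower and none higher. Ccr2, the receptor by which monocytes leave the marrow, stood between 0.53 and 0.999 on the PreGM arrays. No PreMegE array was well above background for it, and the fold was at least 70.5.

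Among symbol stems with at least 8 genes tested, the MS4A genes had the highest share called, 7 of 12, all lower in PreMegE. These encode membrane proteins with 4 spans, several of them found on leukocytes. Ms4a6c stood at -2.41, -2.31 and -2.67 on the PreMegE arrays and 3.04, 2.93 and 3.18 on the PreGM arrays and differed by -5.51 ± 0.29 (adjusted p = 5.82e-10). Ms4a4c was at least 26.8-fold lower, with no PreMegE array well above background. Of 7 Toll-like receptors, Tlr7, Tlr2 and Tlr1 were lower, Tlr2 by -3.36 ± 0.40 (adjusted p = 6.44e-06) with PreGM replicate 3 at 0.65 against 2.67 and 2.42 on the other PreGM arrays. Of the 9 SLAM genes, 6 were lower and Slamf1 alone was higher, which the gate fixed. Cd48, another SLAM antigen, differed by -1.13 ± 0.25 (adjusted p = 0.00219).

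Antigen presentation and lymphoid genes were on the PreGM side as well. Of 10 class II genes, 0 of 9 genes tested were called higher and 6 lower, with a median of -1.45. Cd74, the invariant chain, stood between -2.51 and -2.13 on the PreMegE arrays and between 1.94 and 2.17 on the PreGM arrays, a difference of -4.30 ± 0.19 (adjusted p = 8.06e-11). Ciita, the master regulator of these genes, differed by -1.45 ± 0.32 (adjusted p = 0.00232). Against PreGM replicate 3 alone the class II list had 0 higher and 4 lower. Of 24 lymphoid priming genes, 0 of 21 genes tested were called higher and 12 lower, with a median of -2.08. Dntt, the terminal transferase of lymphoid progenitors, stood at -1.41, -1.82 and -1.78 on the PreMegE arrays and 4.66, 4.87 and 4.24 on the PreGM arrays and differed by -6.26 ± 0.39 (adjusted p = 4.13e-09). The KLS mean of Dntt was 5.66 ± 0.13 (SD, n = 3, as for other KLS means), above both fractions. Blnk, an adaptor of B cell signalling, differed by -3.44 ± 0.22 (adjusted p = 5.98e-09). The defining B cell genes Pax5 and Ebf1 were not well above background on any of the 6 arrays and Cd79a differed by 0.04 ± 0.28 (adjusted p = 0.947). The summed linear level of 8 B cell markers ranged from 4.43 to 5.43 in PreMegE and was 8.68 or more in PreGM, and that of 7 dendritic cell markers from 5.85 to 7.30 and from 14.3 to 14.7. Their part in these differences was not tested. The lymphoid list against that array had 0 higher and 11 lower.

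Granule genes divided by class. Of 13 primary granule genes, 0 of 12 genes tested were called higher and 7 lower, with a median of -1.52. Prtn3, proteinase 3, stood at 1.48, 1.30 and 1.05 on the PreMegE arrays and 5.15, 5.05 and 5.37 on the PreGM arrays and differed by -3.91 ± 0.40 (adjusted p = 1.08e-06). Ctsg, cathepsin G, differed by -3.81 ± 0.53 (adjusted p = 3.65e-05). Mpo, myeloperoxidase, stood at 5.89 and 5.80 on PreMegE replicates 1 and 3, since its spot on replicate 2 was left out as an outlier, and at 9.27, 9.19 and 9.37 on the PreGM arrays. Its difference, fitted on 5 arrays of these fractions, was -3.42 ± 0.67 (adjusted p = 0.00111). Elane, neutrophil elastase, stood at 0.43, 0.12 and -0.16 on the PreMegE arrays and 2.21, 1.77 and 3.32 on the PreGM arrays and differed by -2.31 ± 0.52 (adjusted p = 0.00275).

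Secondary granule genes, which belong to later neutrophil stages, were mostly not called. Of 14 tested, Mmp8 was called lower and Fcnb higher, near the 12.3% of all genes called in either direction. Fcnb differed by 0.40 against PreGM replicate 3 alone. S100a8, a calcium-binding protein abundant in neutrophils, stood at 3.06, 2.68 and 2.65 on the PreMegE arrays and 0.11, -0.23 and 3.07 on the PreGM arrays. Camp stood at -0.46, -1.38 and -0.79 on the PreMegE arrays and -2.80, -3.17 and -0.02 on the PreGM arrays, and Ltf, lactoferrin, at -1.01, -2.26 and -1.08 on the PreMegE arrays and -3.79, -3.75 and -0.12 on the PreGM arrays. On PreGM replicate 3 these were near or above the PreMegE arrays, and on the other PreGM arrays they were below them. The summed linear level of 9 mature granulocyte markers ranged from 3.55 to 33.3 on the PreGM arrays and from 22.3 to 27.4 on the PreMegE arrays. Its part in the differences of other genes was not tested. The median difference of the secondary granule list was 1.02, and against PreGM replicate 3 alone -0.81. The primary granule counts against PreGM replicate 3 alone were 0 higher and 7 lower.

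Mast cell, basophil and eosinophil genes were mixed, with 3 of 17 called higher and 3 lower. Over all genes the shares were 5.19% and 7.12%. Mcpt8, a basophil protease, stood at -2.71, -2.95 and -3.58 on the PreMegE arrays and 1.66, 1.56 and 2.30 on the PreGM arrays, a difference of -4.92 ± 0.37 (adjusted p = 3.06e-08). Hdc, which makes histamine, differed by -2.67 ± 0.25 (adjusted p = 4.95e-07). Prg2 and Ear1, of eosinophil granules, were higher in PreMegE. Prg2 differed by 3.20 ± 0.53 (adjusted p = 2.08e-04), and Ear1 was at least 2.92-fold higher, with no PreGM array well above background. The eosinophil peroxidase Epx was lower, at -2.21 ± 0.40 (adjusted p = 4.82e-04), so that eosinophil genes did not move one way. With the block for sex-chromosome transcripts 6 of the list were called lower. Cpa3, a mast cell protease, stood at 2.08, 2.04 and 1.87 on the PreMegE arrays and 2.99, 2.79 and 4.36 on the PreGM arrays and was not called. The 8 mast cell or basophil markers had a summed linear level of 5.34 to 6.93 on the PreMegE arrays, below every PreGM array, the highest of which stood at 41.5.

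Stem and multipotent genes were lower in PreMegE more often than higher, 12 against 5 of 23. Over all genes 7.12% were lower and 5.19% higher. Cd34 stood at 3.80, 3.74 and 3.68 on the PreMegE arrays and 7.06, 7.10 and 6.98 on the PreGM arrays and differed by -3.30 ± 0.72 (adjusted p = 0.00214). Against PreGM replicate 3 alone it differed by -3.24 (adjusted p = 0.0622). Procr, the endothelial protein C receptor of stem cells, differed by -3.94 ± 0.31 (adjusted p = 5.53e-08), with a KLS mean of 2.79 ± 0.07 above both fractions. Tek, the angiopoietin receptor, differed by 2.58 ± 0.26 (adjusted p = 1.01e-06) in the other direction. Mllt3 also was called higher, at 1.04 ± 0.14 (adjusted p = 2.45e-05). The counts of this list against that array alone were 3 higher and 8 lower.

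Cell cycle genes differed by less than 2-fold. None of 27 cyclin and replication genes and none of 7 CDK inhibitors was called by limma at 2-fold, while 11 and 4 had an unadjusted p under 0.05. With the block for sex-chromosome transcripts, 1 cyclin or replication gene was called higher and 2 lower, and 1 CDK inhibitor higher. The list medians were -0.01 and 0.40. Mki67, a marker of cycling cells, stood at 5.59, 5.81 and 5.62 on the PreMegE arrays and 4.97, 4.84 and 4.73 on the PreGM arrays, a difference of 0.82 ± 0.17 (adjusted p = 0.00118). Ccne1, cyclin E1, went the other way at -0.86 ± 0.16 (adjusted p = 7.24e-04). Both passed the adjusted p but not the minimum fold. Among survival genes, Bcl2l11, which encodes the killer protein BIM, stood at -0.82, -0.76 and -1.01 on the PreMegE arrays and 2.53, 2.23 and -0.20 on the PreGM arrays, with PreGM replicate 3 the lowest of the PreGM arrays. It was called at -2.38 ± 0.46 (adjusted p = 7.98e-04) and differed by -0.66 (adjusted p = 0.103) against replicate 3 alone. Epigenetic enzymes were called in 2 of 20 cases, near the 12.3% of all genes called in either direction. These were Hdac7 at 1.90 ± 0.12 (adjusted p = 4.66e-09) and Hdac9 at -1.43 ± 0.28 (adjusted p = 9.19e-04). Tgfbr3, a co-receptor of TGF-beta, differed by 3.07 ± 0.34 (adjusted p = 3.26e-06), while Tgfbr2 differed by 0.03 ± 0.18 (adjusted p = 0.941).

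Heat-shock and immediate early genes, which also respond to the handling of cells, were higher in PreMegE. Of 23 genes, 14 were called higher and none lower, with a median of 1.60. Hspb1, a small heat-shock protein, stood at 0.47, 3.52 and 2.58 on the PreMegE arrays and -2.64, -2.63 and -3.18 on the PreGM arrays. The PreMegE arrays varied among themselves more than the PreGM arrays, and the difference was 5.01 ± 0.72 (adjusted p = 4.95e-05). Hspa1a, an inducible HSP70, stood at 6.19, 7.94 and 7.35 on the PreMegE arrays and 3.53, 3.45 and 3.01 on the PreGM arrays, while the constitutive Hspa8 differed by 0.24 ± 0.16 (adjusted p = 0.31). Fos stood at 6.95, 7.16 and 7.14 on the PreMegE arrays and 4.31, 4.57 and 5.68 on the PreGM arrays, with replicate 3 the highest of the PreGM arrays, and differed by 2.23 ± 0.24 (adjusted p = 2.00e-06). The KLS means of Fos and Hspa1a, 7.04 ± 0.12 and 5.55 ± 0.98, were above PreGM. Klf4, Klf6 and Jun, named above among the factors, moved with these genes, and the part of sample handling in them was not tested. With PreGM replicate 3 alone the counts were 14 higher and 0 lower.

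**Figure D3:**
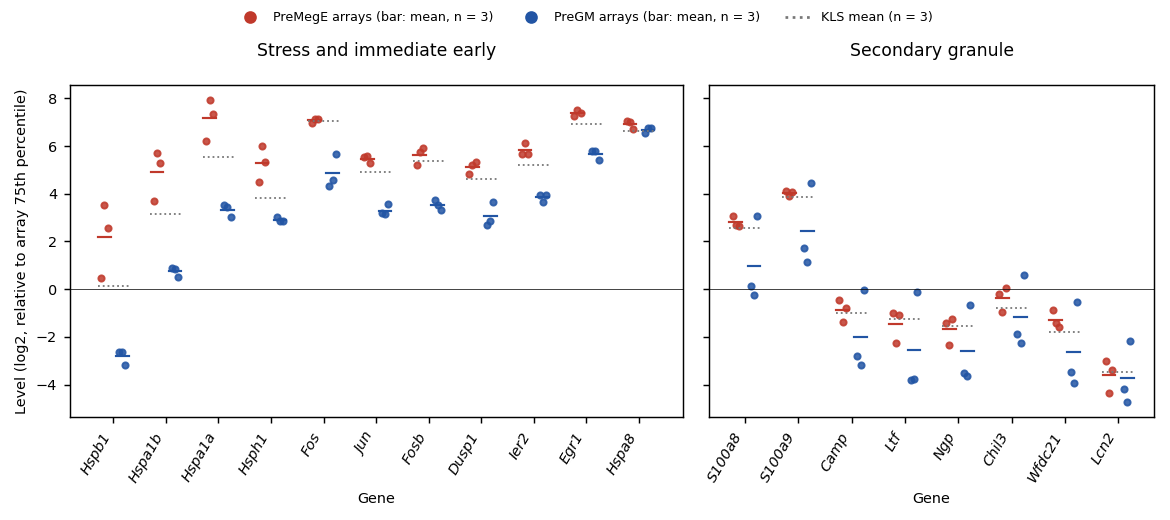
Levels of stress and immediate early genes (left) and secondary granule genes (right) on every PreMegE and PreGM array (log2, relative to the 75th percentile of the array), with bars at the means and dotted lines at the KLS mean. PreMegE replicate 1 is lowest of the PreMegE arrays for Hspb1 at 0.47, and PreGM replicate 3 stands above the other PreGM arrays for S100a8 at 3.07.

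KLS gave each difference a reference level. Over all probes, 1049 (3.55%) were called higher and 2617 (8.86%) lower in PreMegE than in KLS (12.4% together), and 623 (2.11%) higher and 1928 (6.53%) lower in PreGM than in KLS (8.64% together). Spike-in scaling gave 5603 probes called between PreGM and KLS in place of 2551, so the counts against KLS below depend on the scaling. By gene, 3.59% were called higher and 9.94% lower in PreMegE (13.5% together), and 2.1% higher and 6.64% lower in PreGM (8.73% together). Of the 743 genes called higher in PreMegE than in PreGM, 370 were called above KLS in PreMegE and 225 below KLS in PreGM. In 311 of them the change from KLS was called in PreMegE alone, in 165 in PreGM alone, in 35 in both and in opposite directions, and in 183 in neither. Of the 1019 genes called lower, 740 were called below KLS in PreMegE and 188 above KLS in PreGM. These comparisons share the KLS arrays with each other and the PreMegE and PreGM arrays with the comparison that chose the genes, so the counts are a description and are not read against the shares of all genes. Gata1 rose above KLS in both fractions, by 4.45 in PreMegE and by 1.22 in PreGM (adjusted p = 5.69e-10 and 0.00146). Irf8 was -3.57 from KLS in PreMegE and 2.65 in PreGM (adjusted p = 2.07e-04 and 0.00378). Satb1 was -3.97 from KLS in PreMegE and -0.16 in PreGM (adjusted p = 2.57e-10 and 0.617).

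The KLS arrays carried macrophage transcripts. The summed linear level of 12 macrophage markers ranged from 28.8 to 80.4 in KLS, from 1.02 to 1.74 in PreMegE and from 1.48 to 1.74 in PreGM. All 12 were well above background on every KLS array. Their part in the falls from KLS was not tested.

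**Figure D4:**
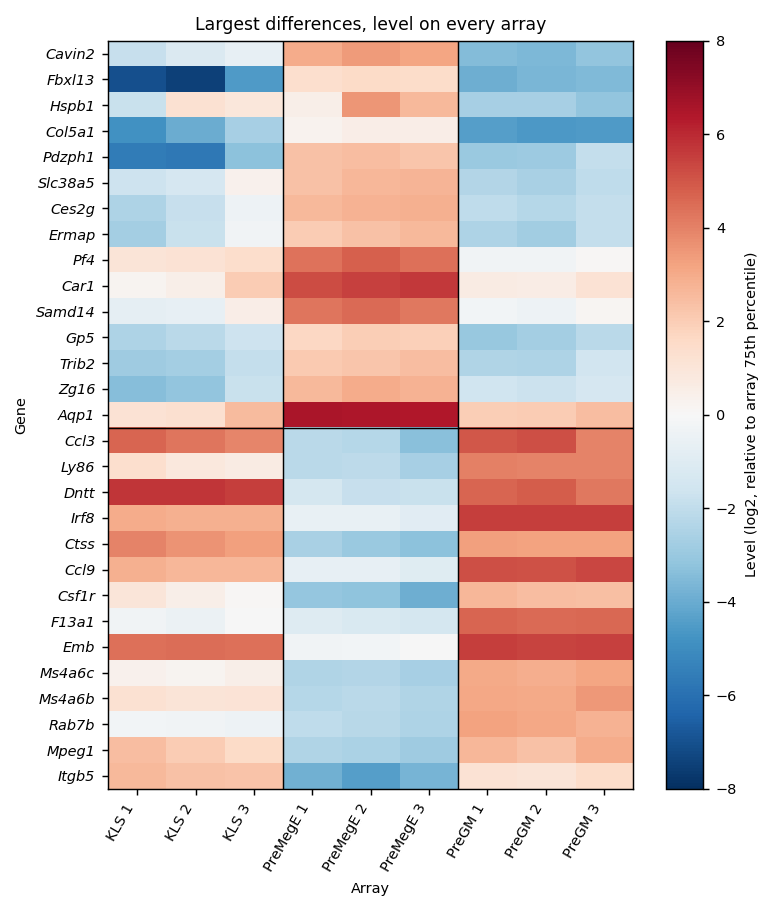
Level on each KLS, PreMegE and PreGM array (colour, log2 relative to the 75th percentile of the array) of the 15 genes with the largest differences in each direction among those well above background on all 6 arrays of the compared fractions, less 1 lower gene that is not reported. The upper block runs from Cavin2 (6.58) to Aqp1 (4.31) and the lower from Ccl3 (-7.27) to Itgb5 (-5.19).

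The remaining genes in the plot of the largest differences were outside the lists or on other ones. Toward PreMegE they included Fbxl13 at 5.13 ± 0.55, Col5a1 at 4.97 ± 0.37, Pdzph1 at 4.94 ± 0.62, Slc38a5, an amino acid transporter, at 4.91 ± 0.36, Ces2g at 4.84 ± 0.38, Samd14 at 4.49 ± 0.28, Trib2 at 4.40 ± 0.31 and Zg16 at 4.33 ± 0.34. Of 2 probes each for Col5a1 and Trib2, 1 was called. Toward PreGM they included Ctss, the lysosomal protease cathepsin S, at -6.20 ± 0.58, Emb, an adhesion protein, at -5.62 ± 0.68, Ms4a6b at -5.47 ± 0.55, Rab7b at -5.28 ± 0.15, Mpeg1, a pore-forming protein of macrophages, at -5.25 ± 0.25, and the integrin Itgb5 at -5.19 ± 0.57. Groups that do not overlap were a condition for this plot.

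The separation at this split was also set against that between CFUe and GMP, in 1 contrast, in which 34.2% of all probes passed an adjusted p of 0.05. Gata1 differed by 3.23 between PreMegE and PreGM and by 6.04 between CFUe and GMP. Its contrast was -2.80 (adjusted p = 7.56e-06), and -1.27 (adjusted p = 0.0188) with spike-in scaling. For Irf8 the differences were -6.22 and -8.52, with an adjusted p of 0.0439 for the contrast, and 0.0659 with the slide as a block.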

How the data were processed

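Total RNA of sorted bone marrow cells was labelled with Cy3 and hybridised to whole mouse genome arrays in 1 colour, 3 arrays for each of 7 fractions. The deposited scanner files hold a background-corrected intensity per spot, made by the authors with Agilent Feature Extraction 10.7.1.1 (name per the labels, version per the file headers). The deposited series table holds log2 values normalized by the authors, whose methods name limma and SAM for the arrays without the kind of normalization, and served as an alternative.

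Levels were log2 intensities minus each array's 75th percentile over 43379 spots that were not controls. Between 80 and 283 outlier spots per array were left out and none was saturated. Spots of a probe were averaged (41174 probes), and a probe entered the tests if every array of some fraction (3 of 3) read well above background. Symbols came from RefSeq accessions (GRCm38.p6), for 26690 probes, and the brightest probe over all arrays stood for a gene. Some genes are not reported here.

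A linear model over all 21 arrays was fitted by lmFit and eBayes of limma 3.58.1 (R 4.3.3), with two-sided tests, without a block and with Benjamini-Hochberg adjustment over 29532 probes. The median residual SD was 0.262 with 14 degrees of freedom, and the number of arrays limits the precision. Where a fraction had no array above background, the fold is given as "at least": the other fraction's mean was set against, per array, the lowest signal called well above background or the probe's own signal if higher. Some list medians were repeated with those bounds. The fit was tested on simulated data for PreMegE vs PreGM with 29532 probes. It called 75 of 100 probes changed by 1.5 (log2), 84 of 100 changed by 2, and 4 unchanged probes. The simulated noise was normal and independent, without slide or sex-chromosome structure, and far fewer probes were changed than were called in the data. These counts therefore do not give the recovery or the false calls of the real comparison. Figures used Python 3.11.15 and matplotlib 3.10.9. Members, lists and tests were chosen with earlier results of these data known. Named genes are those on the lists and in families by symbol, and the 15 largest differences in each direction among called genes well above background on all 6 arrays with no overlap. Alternatives were other scalings, filters and blocks, a normexp background (offset 50), the series table and leaving out each array. The block for sex-chromosome transcripts and the comparison with PreGM replicate 3 alone were chosen after seeing the data.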

Additional observations from a re-analysis of the deposited data

Results flagged for a closer look

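The difference between PreMegE and PreGM was set against that between CFUe and GMP, the following stage on each side, for 12 regulators. The value is the first difference minus the second, and a positive value means that the first was more positive. By a limma contrast all of them passed an adjusted p of 0.05, beside 34.2% of all probes tested. Factors of the GATA side that were further apart at the later stage were Gata1 at -2.80, Klf1 at -4.06, Gfi1b at -5.21 and Zfpm1 at -2.27. On the myeloid side the later difference was more negative, giving Spi1 4.08, Cebpa 2.74, Gfi1 5.41 and Irf8 2.30. Of the CFUe arrays, 1 of 3 was well above background for Spi1, Gfi1 and Meis1 and 2 for Irf8. Gata2 gave 0.85, and it was already further apart between PreMegE and PreGM, by 2.41, than between CFUe and GMP, by 1.56. For Fli1, Meis1 and Nfe2 the values were 4.54, 4.57 and 1.27. Fli1 differed by 0.29 (adjusted p = 0.555) between PreMegE and PreGM and by -4.25 between CFUe and GMP, and Nfe2 by 0.62 and -0.65, under 2-fold at both stages. Meis1 turned direction and differed by 1.49 between PreMegE and PreGM and by -3.07 between CFUe and GMP. With the slide as a block the adjusted p was 0.292 for Gata2 and 0.0659 for Irf8, and with a block for sex-chromosome transcripts 0.0561 and 0.0527. Scaling to the spike-in RNAs moved the median of this contrast over all probes from -0.15 to 1.39, and values that moved by over 1.5 times were then -1.27 for Gata1, -2.53 for Klf1, 2.38 for Gata2, 2.80 for Nfe2, 3.83 for Irf8 and 4.27 for Cebpa. Zfpm1 stood at -0.74 with an adjusted p of 0.15.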

How the results depend on the processing

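Counts of probes called between PreMegE and PreGM (3556 in all, 1716 higher and 1840 lower) moved by over 1.5 times under 4 settings. A normexp background gave 1924 (858 and 1066), 1 probe per gene 1774 (749 and 1025, with fewer probes tested), no minimum fold 8123 (4239 and 3884), and probes well above background on all 6 arrays 1195 lower. Several list medians were smaller with normexp, at 1.77 for red cell, -1.51 for phagocyte, -1.06 for lymphoid priming genes and -1.28 for myeloid factors. In the main fit these medians were 3.01, -2.34, -2.08 and -1.96. The GATA list (1.33) and the stress list (1.62) changed little. Leaving out 1 array gave 3186 to 3908, with 1505 to 1913 higher and 1662 to 1995 lower. Against KLS, PreMegE gave 1952 with 1 probe per gene, 2104 with normexp and 2335 with the filter on all 6 arrays. PreGM gave 1269, 1209 and 1492 under the same settings and 5603 with spike-in scaling. The cause was not tested other than the number of probes. Without a minimum fold, AGATAAG was in 1.87% (3.27% with it, and 2.08% of all) and GGAAGTG in 13.6% of promoters of genes higher in PreMegE. No probe called in the main comparison was called in the opposite direction under any setting run. Pmaip1, Rab20 and Rgs16 were called lower but changed sign against PreGM replicate 3 alone (0.22, 0.0024 and 0.42) and on the slide it shares with PreMegE replicate 3 (0.37, 0.017 and 0.12). Of the 278 called genes on the lists, in families other than SLC or among the largest differences, those no longer called numbered 55 with normexp, 53 against PreGM replicate 3 alone, 31 with a block for sex-chromosome transcripts, 30 with the slide as a block and 21 with spike-in scaling. Deviations of same-numbered arrays correlated at r = -0.055, -0.10 and 0.17, within the range of the other pairs (-0.16 to 0.26). With so few arrays this cannot show whether the numbers pair the samples. The fit with the replicate block called 3561 probes. At this signal, genes below background in a fraction have only bounds.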
